A study of Mus musculus with 2 samples.

Results

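The genes described here encode the collagens, the laminins and the proteins that cross-link, cut or protect the extracellular matrix of the mouse liver. They were chosen by symbol: the collagen chains (Col followed by a number, a and a number), the laminin chains (Lama, Lamb and Lamc with a number), Timp, Lox, Mmp and Adamts genes, together with Sparc and Fn1. The pattern took 108 of the 19465 genes listed. Of these, 63 had at least 50 unique molecular identifiers (UMIs, each standing for 1 captured probe) in both libraries together and are described by their values. The other 45 are only counted, and 13 of them had no UMI at all.

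Spatial transcriptomics (ST) was done on formalin-fixed, paraffin-embedded liver with a Visium probe assay, in which each spot of a slide reports the RNA of the several cells above it. There was 1 section of an AEG-1ΔMAC mouse and 1 section of an AEG-1fl/fl mouse, on the same slide. AEG-1fl/fl mice carry floxed alleles of AEG-1, the gene Mtdh, without Cre, whereas AEG-1ΔMAC littermates carry the same floxed alleles together with Lyz2-Cre, whose expression in macrophages and other myeloid cells removes AEG-1 there. By the labels both mice were 27 weeks old and received the high fat/high sugar diet from 7 weeks of age on, over 20 weeks, while the study's methods describe this assay as done on mice fed a control diet, and the files do not settle which holds.

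The extracellular matrix of the liver is sparse. Fibrillar collagens lie in the portal tracts, around the central veins and in the capsule, and are made by portal fibroblasts, smooth muscle and stellate cells, whereas the sinusoids are lined by a discontinuous layer of collagen IV, collagen XVIII, fibronectin and a little laminin. Collagen chains are trimmed, assembled and then cross-linked by lysyl oxidases, and the finished matrix is cut by matrix metalloproteinases (Mmp) and Adamts proteases, which Timp proteins inhibit. When stellate cells are activated, as in liver fibrosis, they make more fibrillar collagen, Timp1 and Lox.

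Col3a1, Adamts9 and Col13a1 are shown by their upstream sequence because they stand for the 3 patterns described below. Col3a1 is a vessel wall collagen whose place in the lobule differed between the libraries, Adamts9 was lower in each part of the lobule, and Col13a1 was higher in each part. Each sequence holds the 250 bases before the gene start in RefSeq (build GRCm38.p6), 5′ to 3′ on the strand of the gene, at chr1:45311288-45311537 on the plus strand for Col3a1, chr6:92943535-92943784 on the minus strand for Adamts9 and chr10:61979109-61979358 on the minus strand for Col13a1. Capitals mark each match, read on either strand, to the letters of a TATA box, TATAAA, or of a GC box, spelled GGGCGG. The CCAAT box was searched by the letters of its name and had no match in these windows.
Col3a1: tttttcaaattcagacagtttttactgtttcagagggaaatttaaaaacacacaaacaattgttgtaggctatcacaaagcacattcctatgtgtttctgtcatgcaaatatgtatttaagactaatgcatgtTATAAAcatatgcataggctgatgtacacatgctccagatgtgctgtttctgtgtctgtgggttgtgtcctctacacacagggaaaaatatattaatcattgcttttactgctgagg
Adamts9: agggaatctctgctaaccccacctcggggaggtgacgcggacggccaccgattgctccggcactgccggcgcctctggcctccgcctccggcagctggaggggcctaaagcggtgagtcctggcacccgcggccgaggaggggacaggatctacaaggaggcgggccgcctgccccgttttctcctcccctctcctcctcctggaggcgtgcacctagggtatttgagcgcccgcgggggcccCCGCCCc
Col13a1: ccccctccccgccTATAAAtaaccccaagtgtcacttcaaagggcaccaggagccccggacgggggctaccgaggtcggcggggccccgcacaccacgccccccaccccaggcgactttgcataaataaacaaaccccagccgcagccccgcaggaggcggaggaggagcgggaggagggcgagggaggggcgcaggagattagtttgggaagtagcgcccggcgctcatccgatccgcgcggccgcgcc

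Col3a1 had 1 TATA box and a GC content of 35.2%, Adamts9 had 1 GC box and 71.2%, and Col13a1 had 1 TATA box and 68.8%. Among the 32851 upstream sequences of this length in the RefSeq table, 32.7% held such a match for the GC box, 33.8% for the CCAAT box and 12.4% for the TATA box. The table had an entry for 73 of the 108 genes and for 39 of the 63 with at least 50 UMIs.

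After the spot filter of the study, 2140 of 2149 AEG-1ΔMAC spots with 45453286 UMIs and 2540 of 2543 AEG-1fl/fl spots with 50322850 UMIs remained. Both libraries list 19465 genes, and 1782 spot barcodes occur in both, as they name positions on the capture area. Mtdh was at 66.3 CPM (UMIs scaled to the same library total) in AEG-1ΔMAC against 60.2 CPM in AEG-1fl/fl, so that whole-tissue spots did not show its removal from myeloid cells. The albumin gene Alb held 14.2% of the UMIs of AEG-1fl/fl but 8.80% of those of AEG-1ΔMAC, and AEG-1ΔMAC over AEG-1fl/fl ratios of CPM had a median of 0.15 (log2) over the 6933 genes whose mean reached 10 CPM. All ratios between the genotypes over whole sections are therefore given on the log2 scale relative to that median, and those within a set of spots relative to the median of the same genes in these spots (0.13 to 0.26), with a 95% interval that covers counting error only. With 1 section of each genotype, no spread between mice was measured and no test between genotypes was possible. A gene was called lower or higher when it was at least 1.5-fold from the median with its interval on the same side, and the share of all 11867 genes with at least 50 UMIs that met the same rule is given as the background. In spots, fewer cells of a type and less RNA per cell cannot be told apart.

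The matrix genes took a small part of the RNA. They had 110460 UMIs in AEG-1ΔMAC, 0.243% of the library, and 116763 UMIs in AEG-1fl/fl, 0.232%. Fn1, which encodes fibronectin and is also secreted by hepatocytes as the plasma form, made up 63.6% and 54.8% of these UMIs. Of the 108 genes, 79 had at least 10 UMIs, 49 at least 100, 18 at least 1000 and 3 (Fn1, Col18a1 and Sparc) at least 10000. Just under the minimum lay Col11a2 with 49 UMIs, Col6a5 with 46 and Col4a4 with 39, and just above it Mmp28 with 51, Col12a1 with 53 and Lamb3 with 60. Timp1, an inhibitor of metalloproteinases that activated stellate cells induce, had only 5 UMIs in AEG-1ΔMAC against 8 in AEG-1fl/fl. Lox, the lysyl oxidase that gave the family its name, had 9 and 12. Both genes were too low to compare at this depth.

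In the whole sections, 16 of the 63 measured matrix genes were lower in AEG-1ΔMAC than in AEG-1fl/fl and 5 were higher. The share called lower was 25.4%, against a background of 6.57% of all genes, and the share called higher was 7.94%, against 3.59%. The median ratio of the 63 genes was -0.30, whereas that of all genes was -0.02. Intervals lay wholly below the median for 30 genes, or 47.6% against 26.3% of all genes, and wholly above it for 9 genes, or 14.3% against 21.3%. The genes that were lower came from most families (Adamts1, Adamts4, Adamts7, Adamts9, Col4a1, Col4a5, Col5a2, Col14a1, Col16a1, Lama1, Lama2, Lama4, Lamb1, Loxl2, Loxl4 and Sparc).

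**Figure D1:**
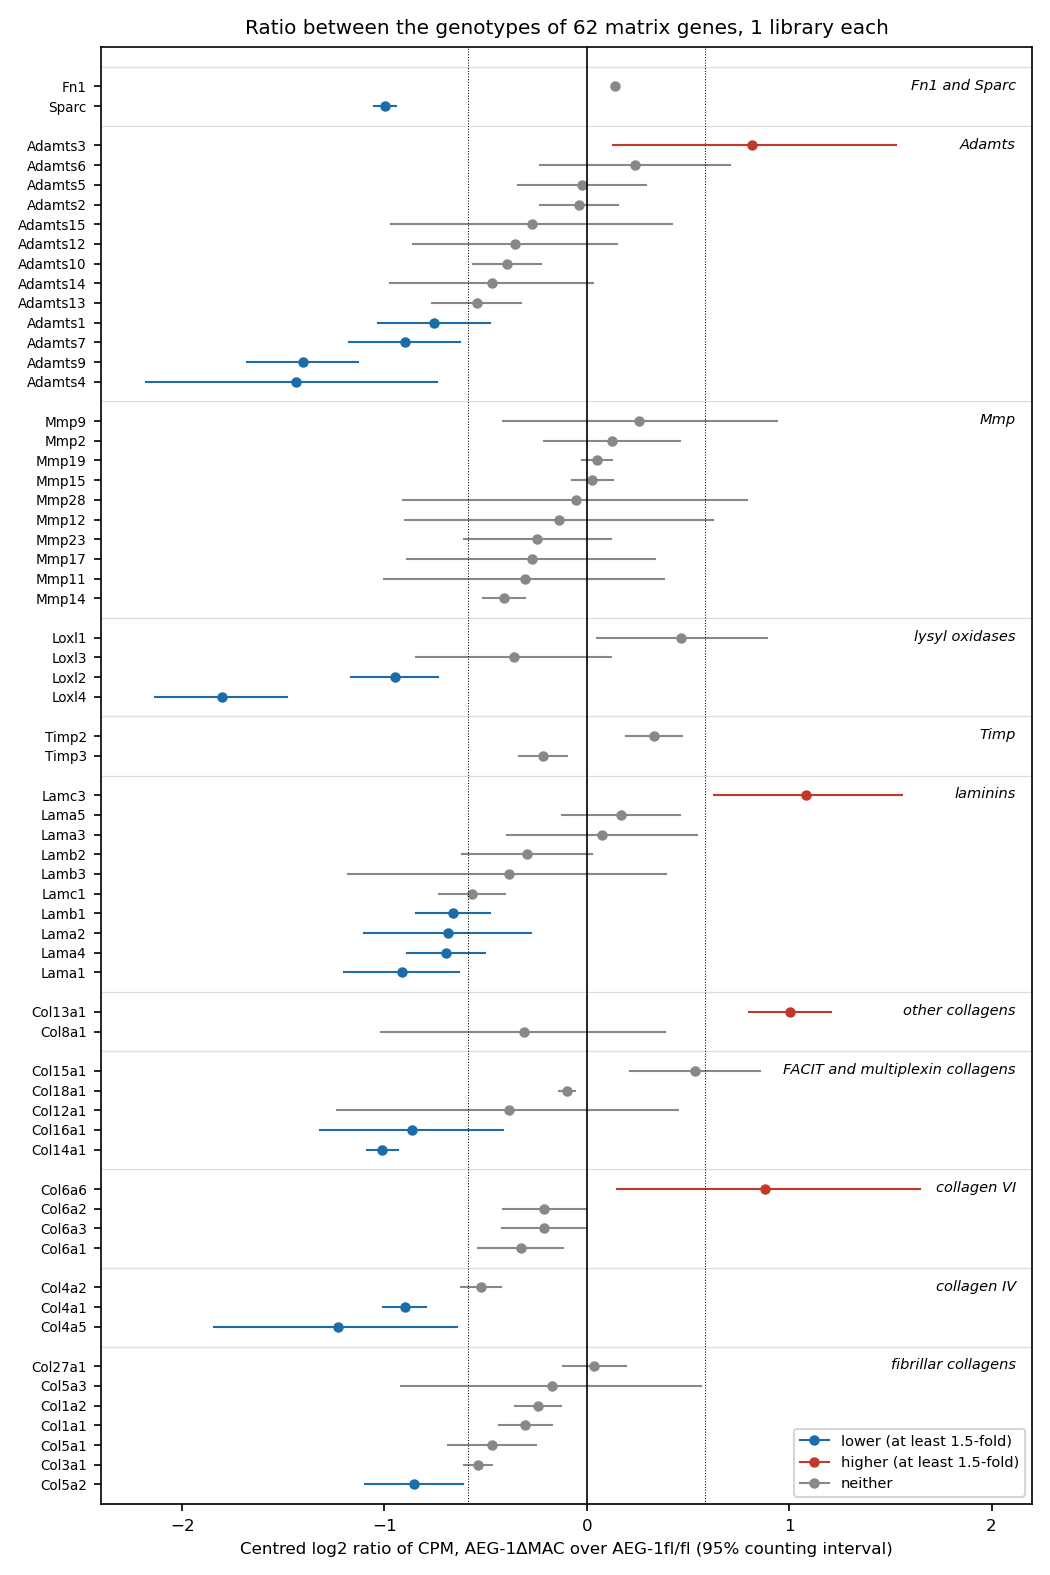
Centred ratio (log2) of CPM in AEG-1ΔMAC to that in AEG-1fl/fl for 62 of the 63 matrix genes with at least 50 UMIs, grouped by class, with points for the ratio in 1 library per genotype and bars for the 95% counting interval. The solid line is the median of all genes and the dotted lines are 1.5-fold from it. Blue marks the 16 lower genes, from Loxl4 at -1.80 upwards, and red 4 of the 5 higher genes, up to Lamc3 at 1.08.

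Fibrillar collagens give connective tissue its tensile strength. Col3a1, the chain of type III collagen (chr1:45311538-45349706, plus strand, GRCm38 with GENCODE M21 genes), was at 62.2 CPM in AEG-1ΔMAC against 81.6 CPM in AEG-1fl/fl, a ratio of -0.54 (95% interval -0.61 to -0.47). The AEG-1ΔMAC level was the lower by an amount outside counting error, but under 1.5-fold. Col1a1 and Col1a2, the chains of type I collagen, were at 19.01 and 26.4 CPM in AEG-1ΔMAC and at 21.2 and 28.2 CPM in AEG-1fl/fl, ratios of -0.31 (-0.44 to -0.17) and -0.24 (-0.35 to -0.13). The 2 chains of 1 collagen thus had ratios whose intervals overlap. Of 7 measured fibrillar collagens only Col5a2, a chain of the type V collagen that regulates fibril diameter, was called lower, with 4.84 and 7.91 CPM and a ratio of -0.85 (-1.10 to -0.61). It lies next to Col3a1 on chromosome 1, 24615 bases away on the other strand. Col27a1 was the exception of the class, at 14.9 and 13.1 CPM and a ratio of 0.04 (-0.12 to 0.19).

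Collagen IV forms the network of basement membranes, and its 3 measured chains had the lowest class median, -0.90. Col4a1 was at 24.5 CPM in AEG-1ΔMAC (95% Poisson interval 23.1 to 26.0) and 41.4 CPM in AEG-1fl/fl (39.6 to 43.2), a ratio of -0.90 (-1.01 to -0.79). The intervals of the 2 libraries are far apart. Its partner chain Col4a2 was at 32.0 and 41.6 CPM, a ratio of -0.52 (-0.62 to -0.43), which is in the same direction but not called. The 2 genes are transcribed away from each other on chromosome 8, with annotated starts that overlap by 22 bases, and their ratio intervals do not overlap. Col4a5, on the X chromosome, had 35 UMIs in AEG-1ΔMAC against 82 in AEG-1fl/fl and was called lower at -1.23 (-1.84 to -0.64).

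Among the laminins, the cross-shaped trimers of the basement membrane, all 11 chains were measured, 4 were lower and 2 were higher. The β1 chain Lamb1 was at 8.82 CPM in AEG-1ΔMAC against 12.6 CPM in AEG-1fl/fl, a ratio of -0.66 (-0.85 to -0.48). The γ1 chain Lamc1, which most laminin trimers contain, was at 11.5 and 15.4 CPM, a ratio of -0.57 (-0.73 to -0.41), just short of a call. The α chains Lama1, Lama2 and Lama4 were called lower at -0.91 (-1.20 to -0.63), -0.69 (-1.10 to -0.28) and -0.69 (-0.89 to -0.50). Lama5 did not follow them, with 4.64 and 3.74 CPM and a ratio of 0.17 (-0.12 to 0.46). The call of Lama2 was also lost with spots thinned to 10000 UMIs (-0.47, -1.08 to 0.13) and with the mean of the CPM of each spot (-0.57). Without centring on the median of all genes, Lama2, Lama4 and Lamb1 fell short of a call and Lama1 alone of the laminins remained lower.

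Lamc3 was one of the higher chains and is named because it was called and not by the rule for named genes. It had 125 UMIs in AEG-1ΔMAC against 59 in AEG-1fl/fl, or 2.75 and 1.17 CPM, a ratio of 1.08 (0.63 to 1.56). Lamc3 was concentrated in bile duct and vessel wall spots, as described below.

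Of the collagens that attach to fibrils or basement membranes, Col14a1 (chr15:55307750-55520803, plus strand) stood out. It encodes a fibril-associated collagen, and it was at 45.2 CPM (43.3 to 47.2) in AEG-1ΔMAC against 82.3 CPM (79.8 to 84.9) in AEG-1fl/fl, a ratio of -1.01 (-1.09 to -0.93). Col18a1, the source of endostatin and the most abundant collagen by UMIs, was at 217.7 and 211.0 CPM, a ratio of -0.10 (-0.14 to -0.06). Col15a1, its closest relative, was in the other direction at 4.42 and 2.76 CPM and 0.53 (0.21 to 0.86), without a call. Col16a1, named because it was called, was lower, with 66 and 120 UMIs and a ratio of -0.86 (-1.32 to -0.42).

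Collagen VI makes beaded filaments around cells. Col6a1 and Col6a2 lie 85162 bases apart on chromosome 10 and encode chains of 1 trimer with Col6a3. Their ratios were close together, at -0.33 (-0.54 to -0.12) for Col6a1, -0.21 (-0.42 to -0.00) for Col6a2 and -0.21 (-0.42 to -0.01) for Col6a3, and none was called. Col6a6, a low gene with 46 and 25 UMIs, was called higher at 0.88 (0.15 to 1.64), a call that was lost after thinning, without vessel and related spots and at 2-fold. Col13a1 (chr10:61838236-61979108, minus strand), a transmembrane collagen, was higher too: it was at 13.6 CPM (12.6 to 14.7) in AEG-1ΔMAC against 6.14 CPM (5.47 to 6.86) in AEG-1fl/fl, a ratio of 1.003 (0.80 to 1.20). It was the only called-higher matrix gene with at least 200 UMIs.

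Sparc (chr11:55394500-55423183, minus strand) encodes a collagen-binding glycoprotein that chaperones collagen into the matrix. With 11670 UMIs it was the most abundant gene that was lower, at 85.6 CPM (83.0 to 88.4) in AEG-1ΔMAC against 154.6 CPM (151.1 to 158.0) in AEG-1fl/fl, a ratio of -0.998 (-1.05 to -0.94). Fn1 was at 1546 and 1270 CPM, a ratio of 0.14 (0.12 to 0.15). Because Fn1 holds most of the counts, the ratio of the summed UMIs of all 108 genes was -0.08 (-0.09 to -0.07), and without Fn1 it was -0.39 (-0.41 to -0.38).

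Lysyl oxidases oxidise lysines of collagen and elastin so that the chains cross-link. Loxl4 (chr19:42593982-42612813, minus strand) was at 2.24 CPM in AEG-1ΔMAC against 7.07 CPM in AEG-1fl/fl, the lowest ratio of the 63 genes at -1.80 (-2.13 to -1.48), and Loxl2 was at 5.92 and 10.3 CPM, a ratio of -0.95 (-1.17 to -0.73). Both were lower. Loxl1, which acts on elastic fibres, was at 2.55 and 1.67 CPM and 0.47 (0.05 to 0.89), without a call.

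None of the 10 measured Mmp genes was called in either direction in the whole sections, a count near the background shares of 6.57% and 3.59%. With a minimum of 20 UMIs Mmp25 was called lower and Mmp7 and Mmp13 higher, and Mmp23 was lower outside vessel structures as given below. Mmp19, the one with the most UMIs, was at 63.8 and 55.7 CPM with a ratio of 0.05 (-0.03 to 0.13), and the membrane-bound Mmp15 was at 35.1 and 31.1 CPM with 0.03 (-0.08 to 0.13). Mmp14, the membrane protease that activates pro-Mmp2, was at 29.4 CPM in AEG-1ΔMAC against 35.2 CPM in AEG-1fl/fl, a ratio of -0.41 (-0.51 to -0.31). It was the only Mmp gene whose interval did not include the median, while Mmp2, the gelatinase it activates, was at 3.48 and 2.88 CPM and 0.12 (-0.21 to 0.46). Of the inhibitors, Timp2 was at 21.3 and 15.3 CPM, a ratio of 0.33 (0.19 to 0.47), and the matrix-bound Timp3 was at 23.7 and 24.9 CPM, a ratio of -0.22 (-0.34 to -0.10). The 2 Timp genes lay on opposite sides of the median and neither was called.

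Of 13 measured Adamts genes, 4 were lower and 1 was higher. Adamts9 (chr6:92772699-92943492, minus strand), a proteoglycan-cleaving protease, was at 3.34 CPM in AEG-1ΔMAC against 7.99 CPM in AEG-1fl/fl, a ratio of -1.40 (-1.68 to -1.13). Adamts1 was at 3.81 and 5.80 CPM with -0.75 (-1.03 to -0.48), and Adamts7 was at 3.76 and 6.34 CPM with -0.90 (-1.18 to -0.63). Adamts4 was lower with only 24 and 65 UMIs, and Adamts3, a procollagen N-proteinase, was higher with 51 and 29 (both are outside the rule for named genes). The call of Adamts3 was lost after thinning, without vessel and related spots and at 2-fold, that of Adamts4 was not. Adamts2, the main procollagen N-proteinase, was at 9.48 and 8.80 CPM and -0.04 (-0.23 to 0.16), and Adamts5, the neighbour of Adamts1 on chromosome 16, at -0.02 (-0.34 to 0.29). Adamts10 was at 11.3 and 13.4 CPM with -0.40 (-0.56 to -0.23), also without a call.

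To find where these genes were captured, spots in the top 5% of a marker score were set against the rest of the same library, and a gene was called when it was at least 1.5-fold higher in both libraries. No matrix gene enters a score. The vessel wall score is the mean of 8 smooth muscle markers such as Acta2, Myh11 and Tagln, and 34 of the 63 genes, or 54%, were higher in vessel wall-rich spots against a background of 6.4% of all genes. For bile duct-rich spots the count was 33 against 7.38%, and for fibroblast-rich spots 38 against 8.04%. These spot sets share members: of 107 vessel wall-rich spots in AEG-1ΔMAC, 54 were among the fibroblast-rich and 38 among the bile duct-rich spots, and of 127 in AEG-1fl/fl, 37 and 32 were.

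Other cell types held fewer of the genes. In stellate cell-rich spots 13 genes were higher against a background of 0.994%, and in spots rich in large vessel endothelium 10 were, against 0.556%. Central vein endothelium gave 3 genes (Col1a1, Col3a1 and Mmp23), against 0.801%. Spots rich in sinusoidal endothelium gave 0 genes, with a background of only 0.194%, and Kupffer cell-rich spots 0, with 0.969%. In hepatocyte-rich spots Col1a1, Col3a1 and Col6a2 were lower, 3 genes against 0.666%.

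Col1a1 was at 138.4 CPM in the vessel wall-rich spots of AEG-1ΔMAC and 106.8 CPM in those of AEG-1fl/fl, log2 ratios over the rest of the section of 3.496 (3.29 to 3.70) and 2.66 (2.46 to 2.87). Col3a1 was 2.96 and 1.86 higher there on the log2 scale and Col1a2 2.88 and 2.06, so all 3 chains were concentrated in vessel wall-rich spots of each section. Loxl1 was about as concentrated as these collagens, at 2.94 and 3.22. Col6a2 at 3.29 and 2.001, Lama2 at 3.04 and 2.27, Mmp23 at 3.48 and 1.53 and Timp2 at 2.34 and 1.33 belonged to the same group.

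The basement membrane chains Col4a1, Col4a2 and Lamc1, and Sparc, were less concentrated. In vessel wall-rich spots Col4a1 was 1.14 and 1.09 higher on the log2 scale, Lamc1 1.03 and 1.01, Sparc 1.12 and 0.86 and Col4a2 0.77 and 0.85. Lamc3 was different, with ratios of 3.37 and 3.11 in vessel wall-rich spots and of 3.96 and 4.25 in bile duct-rich spots. Fn1 at -0.13 and -0.03, Col18a1 at -0.05 and -0.14, Col27a1 at -0.10 and -0.26 and Col13a1 at -0.42 and -0.33 were not concentrated there. Mmp14 and Mmp19 were not called in any of the cell type-rich spots examined.

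Of the 13 genes higher in stellate cell-rich spots, 11 were also called for the vessel wall and 2 were not. Lama1 was 1.19 higher on the log2 scale in the stellate cell-rich spots of AEG-1ΔMAC, and 0.76 in those of AEG-1fl/fl, while its vessel wall ratios were 0.42 and -0.03. Col14a1 was called for both, with 0.99 and 0.82 in stellate cell-rich spots and 1.34 and 0.61 in vessel wall-rich spots. Col1a1, Col1a2 and Col3a1 were also called for stellate cells, at 0.71 and 0.92, 1.03 and 1.07, and 1.21 and 1.01. The stellate cell-rich spots lay mostly outside vessel walls, with 8 of 107 in AEG-1ΔMAC and 10 of 127 in AEG-1fl/fl that were also vessel wall-rich.

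**Figure D2:**
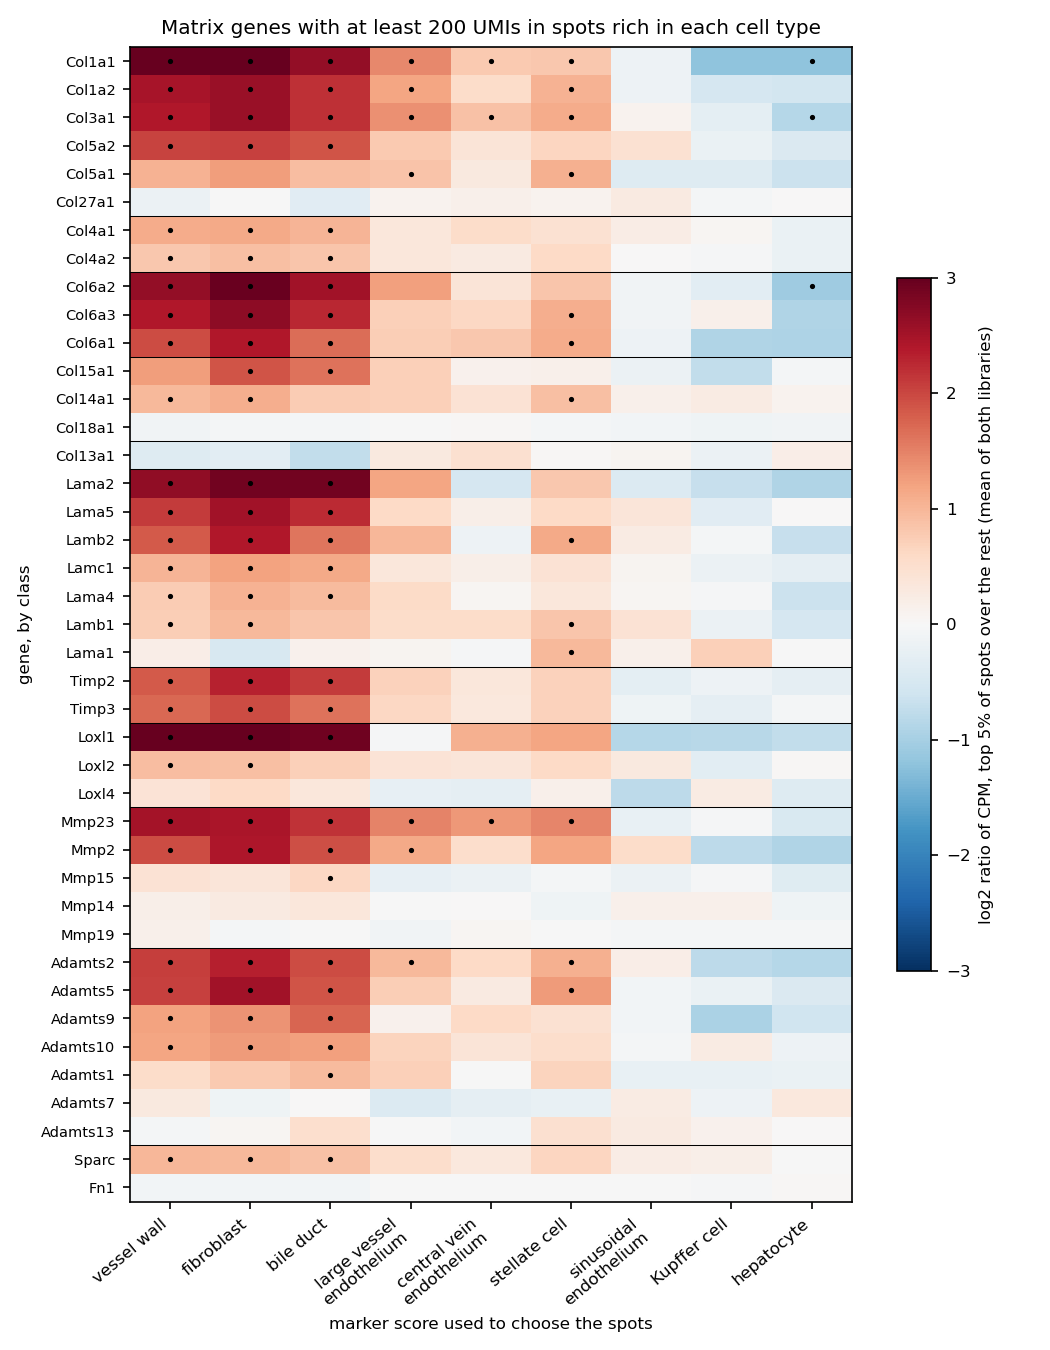
Rows are the matrix genes with at least 200 UMIs, by class, and columns the marker scores by which the top 5% of spots were chosen. Colour gives the log2 ratio of CPM in those spots over the rest, averaged over both libraries (red higher, blue lower), and a dot marks a gene past 1.5-fold in the same direction in each library. Fibrillar collagens, collagen VI, Timp2, Timp3 and Loxl1 are dark in the first 3 columns, whereas Fn1, Col18a1, Col13a1 and Mmp19 are pale throughout.

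Spots were also ranked along the lobule by pericentral (zone 3) minus periportal (zone 1) hepatocyte markers and divided into 3 equal parts in each library. No matrix gene was at least 1.5-fold higher in the zone 3 part of both libraries, with a background of 2.1%, and 3 were higher in the zone 1 part, with a background of 2.14%. These were Lamc3, at a log2 ratio of zone 3 over zone 1 of -3.45 (-4.81 to -2.34) in AEG-1ΔMAC against -2.83 (-4.54 to -1.47) in AEG-1fl/fl, Col15a1 at -0.87 and -0.73, and Adamts7 at -0.88 and -0.60. Lamc3 was almost absent from the zone 3 part, with 7 UMIs against 77 in the zone 1 part of AEG-1ΔMAC and 5 against 36 in AEG-1fl/fl. Timp3 at -0.44 and -0.51 and Mmp15 at -0.44 and -0.40 leaned to zone 1 in both libraries by less than 1.5-fold, and Col27a1 at 0.53 and 0.40 and Col13a1 at 0.45 and 0.80 leaned to zone 3 with intervals above 0 in both. Without vessel, duct, fibroblast and mesothelium spots none of the 63 genes was called for zone 1.

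The position along the lobule by this index differed between the sections. Of the index markers, the study lists Cyp2e1, Cyp1a2 and Pck1 as differing between the genotypes in this assay. The comparison of positions was not repeated with another zone index. Zone ratios were below 0 for 46 of the 63 genes in AEG-1ΔMAC, or 73% against 39.8% of all genes, and for 29 in AEG-1fl/fl, or 46% against 38.7%. Their medians were -0.41 and 0.07, and 45 of the 63 had the lower zone ratio in AEG-1ΔMAC, or 71.4% against 50.4% of all genes. For 10 genes, or 15.9% against a background of 2.99%, the interval in AEG-1ΔMAC lay wholly below that in AEG-1fl/fl: Col1a1, Col1a2, Col3a1, Col4a1, Col6a1, Col6a2, Lama4, Lamb1, Lamc1 and Sparc. The reverse held for 2 genes, Fn1 and Mmp19, or 3.17% against 2.58%. The vessel wall-rich spots were themselves placed differently, with 66 in the zone 1 part, 32 in the middle and 9 in the zone 3 part of AEG-1ΔMAC and 65, 37 and 25 in those of AEG-1fl/fl, and the fibroblast-rich spots with 68, 23 and 16 and with 62, 33 and 32. How much of the difference in position goes with these spots was not tested.

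**Figure D3:**
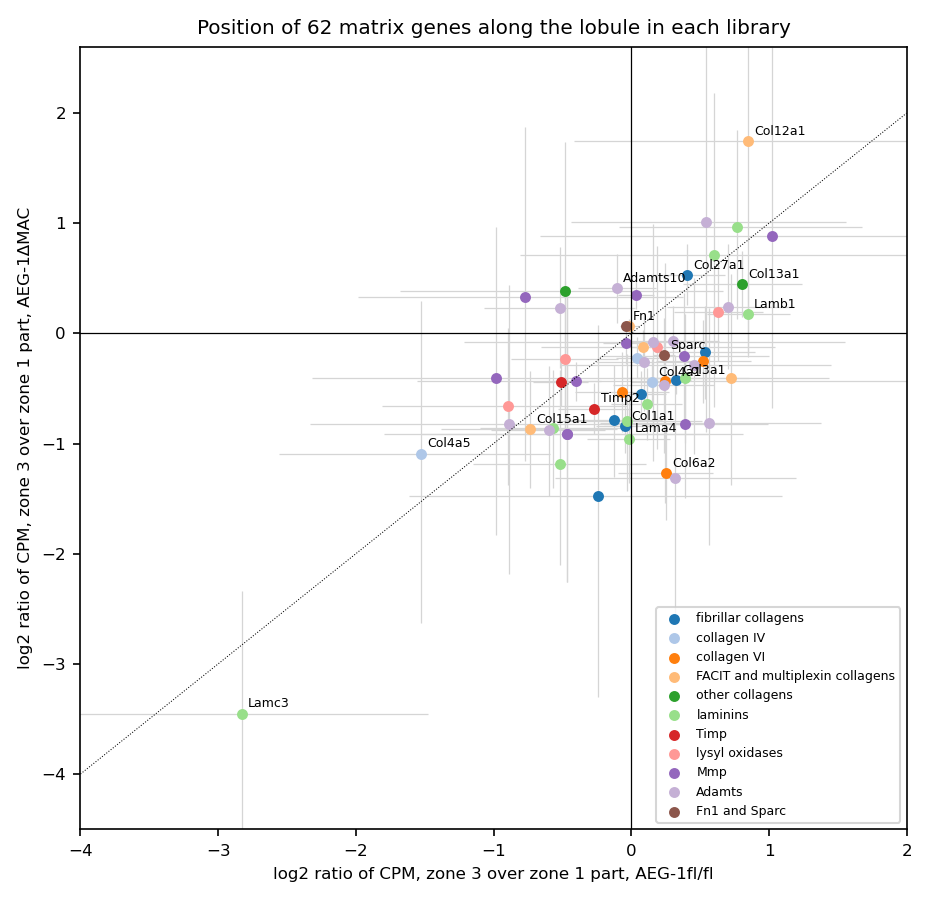
Log2 ratio of CPM, zone 3 over zone 1 part, in AEG-1fl/fl (x axis) and AEG-1ΔMAC (y axis) for 62 of the 63 matrix genes, coloured by class, with grey bars for 95% counting intervals (some run past the frame) and a dotted line where both are equal. Most points lie under that line (44 of 62), with Col6a2 at 0.25 and -1.27 among the farthest, and Lamc3 lies alone at the zone 1 end.

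Col3a1 had 76.6 CPM in the zone 1 part of AEG-1ΔMAC and 75.2 CPM in that of AEG-1fl/fl, but 57.2 and 94.0 CPM in the zone 3 part. The libraries were alike at the portal end and apart at the central end, with ratios between the genotypes of -0.11 (-0.22 to 0.01) and -0.87 (-0.99 to -0.74). When the spots were divided into 10 steps along the index, Col3a1 fell from 89.2 CPM in the second step of AEG-1ΔMAC to 33.5 CPM in the seventh and was at 67.8 CPM in the last, whereas in AEG-1fl/fl the last step was the highest with 137.7 CPM. Col1a1 had the same form, with 7.6 CPM in the eighth step and 21.2 CPM in the last of AEG-1ΔMAC, and with 35.1 CPM in the last of AEG-1fl/fl.

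Sparc and Col4a1 differed along the whole index and more towards zone 3. Sparc was at 87.8 CPM in the zone 1 part of AEG-1ΔMAC and 142.2 CPM in that of AEG-1fl/fl, a ratio of -0.83 (-0.93 to -0.73), and at 76.6 and 167.8 CPM in the zone 3 part, a ratio of -1.28 (-1.38 to -1.18). Col4a1 was at 28.9 and 39.0 CPM in the zone 1 part (-0.57, -0.75 to -0.39) and at 21.3 and 43.4 CPM in the zone 3 part (-1.18, -1.37 to -0.98). In both genes AEG-1fl/fl was above AEG-1ΔMAC in each of the 10 steps, and its own highest step was the last. Col14a1 had ratios of -0.88 (-1.02 to -0.75) in the zone 1 part and -1.11 (-1.25 to -0.97) in the zone 3 part, and Fn1 of 0.08 and 0.18.

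**Figure D4:**
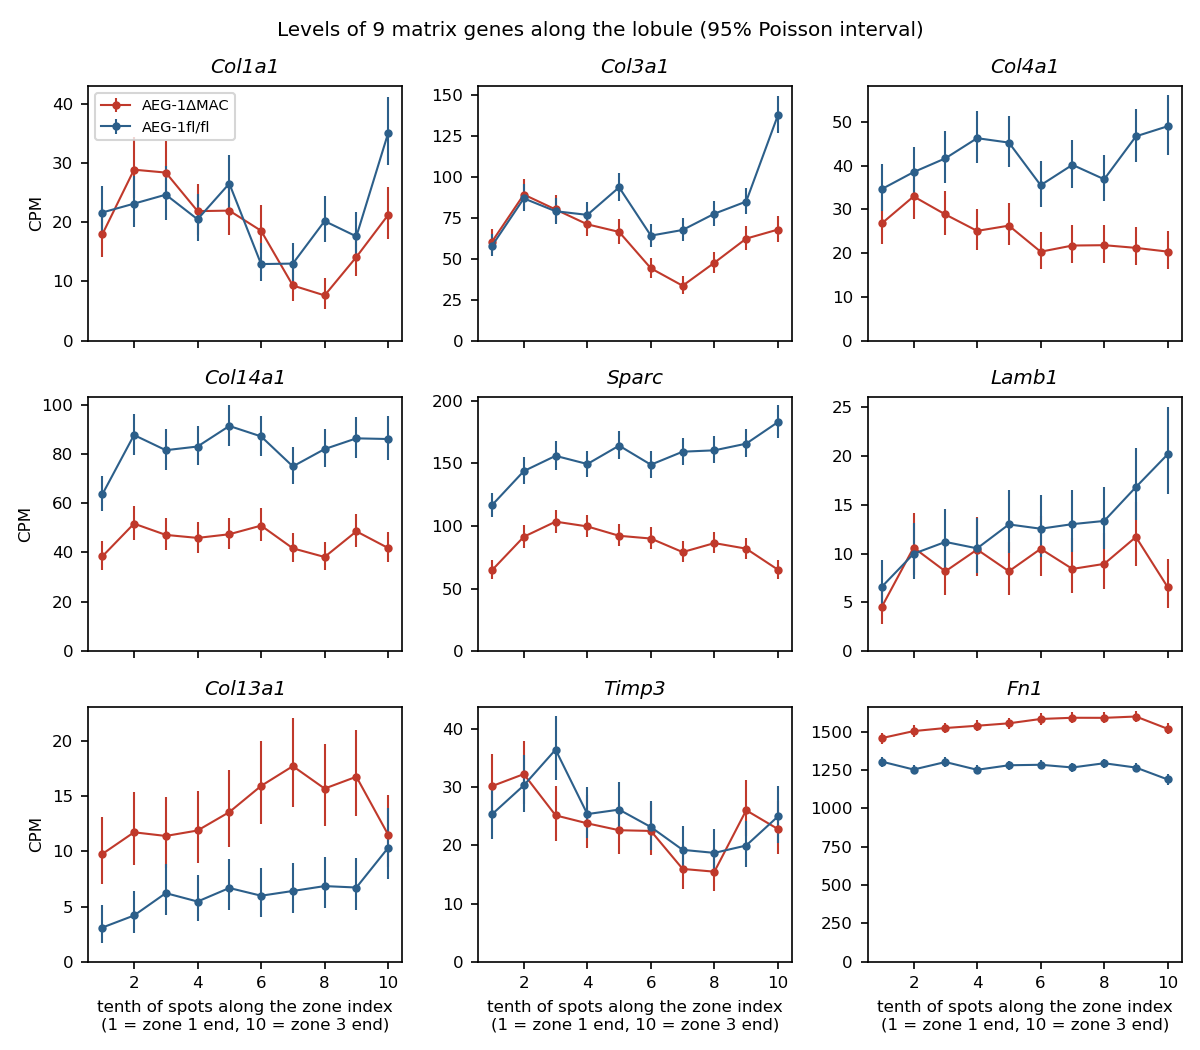
CPM of 9 matrix genes in 10 equal steps of spots along the zone index, from the zone 1 end to the zone 3 end, in AEG-1ΔMAC (red) and AEG-1fl/fl (blue), with 95% Poisson intervals. Col3a1 overlaps in the first steps and ends at 67.8 and 137.7 CPM, Sparc, Col4a1 and Col14a1 are lower in AEG-1ΔMAC throughout, Col13a1 is higher with intervals that overlap in the third and the last step, and Timp3 overlaps along most of the index.

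Counted over all 63 genes, the lower calls increased towards zone 3. In the zone 1 part 9 genes were lower and 6 higher, against 5.21% and 3.83% of all genes, with a median ratio of -0.09. In the middle part 17 were lower and 2 higher, against 6.27% and 3.37%, with a median of -0.34. In the zone 3 part 28 were lower and 1 was higher, against 7.32% and 3.47%, with a median of -0.63. The fibrillar collagens went from 1 of 7 lower in the zone 1 part to 5 of 7 in the zone 3 part, the laminins from 0 to 6 of 11, collagen VI from 0 to 2 of 4 and Adamts from 3 to 7 of 13. The count of lower lysyl oxidases did not change, as Loxl2 and Loxl4 were lower in every part. The median of the class was -0.38 in the zone 1 part, -0.75 in the middle and -0.78 in the zone 3 part. Among the Mmp genes the only lower call in these parts was Mmp23 in the zone 3 part. Col13a1 was called higher in all 3 parts, at 1.16, 1.11 and 0.79, and was the only gene called higher in the zone 3 part. In the last of the 10 steps, however, its levels were 11.5 (8.58 to 15.2) and 10.3 (7.48 to 13.9) CPM, with intervals that overlap almost wholly.

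The vessel wall-rich spots gave other counts than the spots outside vessel structures. In them 9 matrix genes were lower and 7 higher, against 3.6% and 4.82% of all genes, with a median ratio of 0.18. Without the top 10% of spots by vessel wall, bile duct, fibroblast or mesothelium score, 25 were lower and 2 higher, against 7.36% and 3.21%, with a median of -0.46. The mesothelium score had little to rank, since 208 of its 214 top spots in AEG-1ΔMAC and 214 of 254 in AEG-1fl/fl held no UMI of its markers, but the same 25 and 2 genes were called when that score was left out of the mask. Col3a1 was at 355.5 CPM in the vessel wall-rich spots of AEG-1ΔMAC and 263.3 CPM in those of AEG-1fl/fl, a ratio of 0.28 (0.13 to 0.43), but its ratio in the spots without these structures was -0.94 (-1.04 to -0.83). Col1a1 had ratios of 0.22 (-0.02 to 0.46) and -0.77 (-0.99 to -0.55) and Col1a2 of 0.36 (0.12 to 0.60) and -0.60 (-0.77 to -0.44). The 3 chains were thus below the median outside vessel structures, with estimates above it in vessel wall-rich spots. There the interval of Col1a1 included the median and none of the 3 was called higher. The 2 sets, of 107 and 1526 spots in AEG-1ΔMAC and 127 and 1790 in AEG-1fl/fl, do not cover the whole sections. Timp2 at 88.6 and 35.7 CPM, Col6a2 and Mmp23 were called higher in vessel wall-rich spots, with ratios of 1.15, 0.71 and 1.20. The smooth muscle markers that chose these spots had a median ratio of 0.45 in them (3 higher, 0 lower). In the spots without these structures their median was -0.86 (0 higher, 2 lower). The fibroblast markers had medians of 1.75 (5 higher, 1 lower) and 1.24 (2 higher, 0 lower). How much the choice of spots adds to the ratios of the matrix genes was not tested.

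Sparc, Col4a1, Col5a2, Lamb1, Loxl2, Loxl4, Adamts1 and Adamts9 kept their direction in vessel wall-rich spots and were called lower there as in the other spots. Sparc was at 175.5 CPM in vessel wall-rich spots of AEG-1ΔMAC and 269.1 CPM in those of AEG-1fl/fl, a ratio of -0.77 (-0.95 to -0.59). Col4a1 was at 50.7 and 83.4 CPM, a ratio of -0.87 (-1.21 to -0.54). Adamts9 had only 21 and 35 UMIs in them and a ratio of -0.89 (-1.74 to -0.07). Split by place, the vessel wall-rich spots of the zone 1 part gave 4 lower genes, against 3.23% of all genes, and 3 higher, against 3.68%. Those of the zone 3 part gave 5 lower genes, against 2.15%, and 0 higher, against 1.81%. The 5 were Sparc, Col4a1, Col1a1, Col1a2 and Col3a1, so that the fibrillar chains were lower in the few vessel wall-rich spots at the central end, with a ratio of -0.95 (-1.50 to -0.44) for Col3a1, and not in those at the portal end, where it was 0.40 (0.20 to 0.62). Only 9 and 25 spots lie behind the former value.

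**Figure D5:**
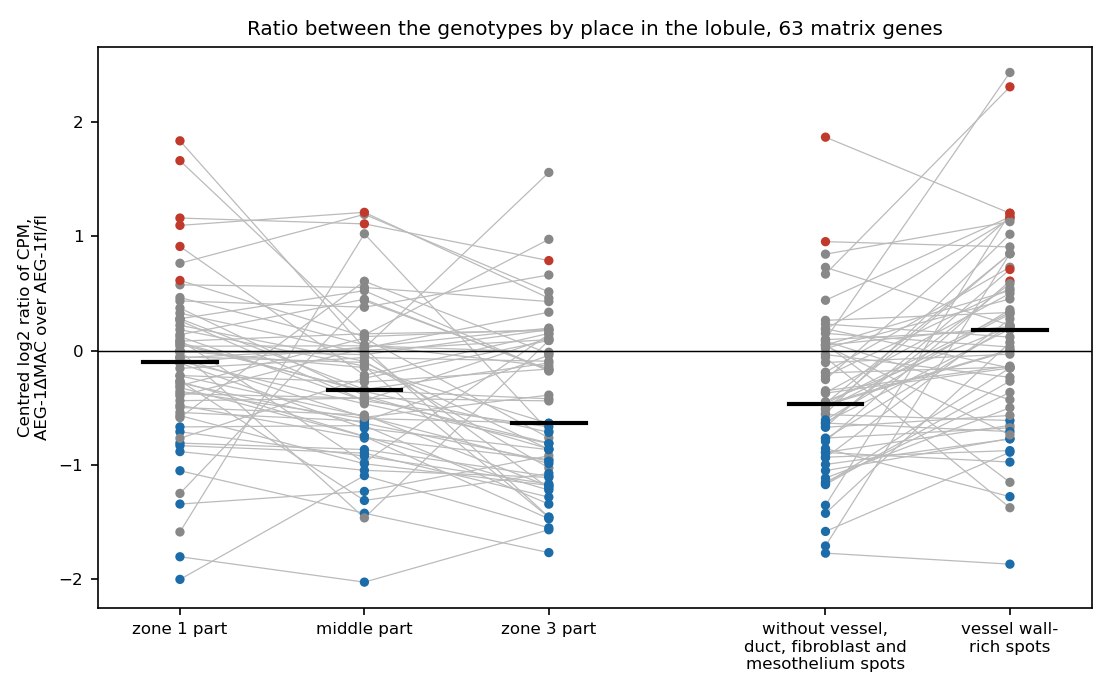
Centred ratio (log2) of CPM in AEG-1ΔMAC to that in AEG-1fl/fl of the 63 matrix genes in the 3 parts of the lobule (left) and in the spots without and with vessel structures (right). Each point is a gene, joined by grey lines, blue if called lower and red if called higher, and black bars are medians. The medians fall from -0.09 to -0.63 towards zone 3, and lie at -0.46 outside and 0.18 within vessel wall-rich spots.

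Markers of the cells that make matrix did not all move one way between the sections. The 6 fibroblast markers summed to 47.5 CPM in AEG-1ΔMAC against 19.4 CPM in AEG-1fl/fl, with 5 of 6 higher (Dpt, Gsn, Clec3b, Mfap4 and C7) while Pi16 was lower. The 8 smooth muscle markers summed to 74.1 and 62.2 CPM, with 0 of 7 measured called in the whole sections. Within the zone 1 part 0 of the 7 were lower and 1 higher, against 5.21% and 3.83% of all genes, with a median of 0.36. Within the zone 3 part 3 were lower and 0 higher, against 7.32% and 3.47%, with a median of -0.22. The 6 stellate cell markers summed to 410.6 and 414.0 CPM, with Colec11 at -0.62 and Pdgfrb at -0.69 lower and Dcn at -0.04 and Ecm1 at -0.02 not. The 6 sinusoidal endothelial markers summed to 426.8 and 424.2 CPM, a centred ratio of -0.14 (-0.17 to -0.11). All 6 lay below the median, 4 of them with their intervals, and only Lyve1 was called lower, at -0.99. Mesothelium, the cover of the liver capsule, had only 8 UMIs in AEG-1ΔMAC against 56 in AEG-1fl/fl over 5 markers, of which Krt14 was at 0 in both. The part of these cells in the ratios of the matrix genes was not tested.

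Genes that serve the same matrix but lie outside the symbol pattern were counted by 4 lists. Their counts stand beside the background of 6.57% of all genes lower and 3.59% higher. For collagen processing 2 of 16 measured genes (12.5%) were lower and 0 higher: Serpinh1, the collagen chaperone Hsp47, was at 13.9 CPM in AEG-1ΔMAC against 25.4 CPM in AEG-1fl/fl, a ratio of -1.02 (-1.16 to -0.88), and Pcolce, the enhancer of procollagen C-proteinase, was at 20.99 and 36.4 CPM, a ratio of -0.94 (-1.05 to -0.83). Of 22 other basement membrane and interstitial matrix genes 6 (27.3%) were lower and 3 (13.6%) higher. The nidogens, which link laminin to collagen IV, were lower, with Nid2 at -1.21 (-1.38 to -1.03) and Nid1 at -0.66 (-0.81 to -0.50), as were Thbs1, Fbn1, Postn and Emilin1, while Fmod, Mfap4 (also a fibroblast marker above) and Fbln1 were higher. Of 16 genes of TGF-beta signalling 3 (18.8%) were lower and 2 (12.5%) higher. Among the called genes were the ligand Tgfb2, with 44 and 116 UMIs, lower at -1.40 (-1.93 to -0.89), and Ccn2, a target of the pathway, higher at 0.81 (0.63 to 0.99). These 2 genes do not stand for the list, as 11 of the 16 were not called. Intervals lay wholly below the median for 5 of the 16 and wholly above it for 3, against 26.3% and 21.3% of all genes. Of 15 matrix receptors only Itgb3 was called, lower at -0.86 (-1.05 to -0.67), a share (6.67%) near the background. Medians were -0.28, -0.11, 0.08 and -0.20 for the 4 lists, beside -0.30 for the matrix genes and -0.02 for all genes.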

How the data were processed

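The submitters' processing notes name Space Ranger 2.0.1, Seurat 4.3.0 and mm10, and the files the authors deposited hold a raw UMI count per gene and spot, with no normalisation. Spots with at most 50000 UMIs and 100 to 7000 genes were kept, and counts were summed by library or set of spots and scaled to CPM. Because probes differ in capture, levels were compared between libraries and spots and not between genes. Ratios carry exact conditional binomial (Clopper-Pearson) 95% intervals, levels exact Poisson intervals. With 1 library per genotype no test was run, and spots were not used as replicates. Scores and the zone index are means of scaled log-normalised markers. No doublet caller was run on spots. Gene coordinates are from GENCODE M21 (GRCm38, the assembly of mm10), matched by Ensembl identifier for all 108 genes.

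Genes were named if they had at least 1000 UMIs, or at least 200 UMIs and one of the 8 lowest or highest genotype ratios, 5 lowest or highest zone ratios or 5 highest vessel wall ratios, plus 18 genes chosen for their role; 33 measured genes met this. Other genes are named where a count was small or a neighbour was of interest, after their values were seen. The members, markers and lists were chosen with earlier results of these data known. Alternatives were other scalings (among them TMM of edgeR 4.0.16 in R 4.3.3), spot sets, depths, weights, UMI minimums, folds and zone indices. Python 3.11.15, numpy 2.4.6, scipy 1.17.1 and pandas 2.3.3 were used, and the scripts were tested on simulated counts. One measured matrix gene and one gene of the TGF-beta list are counted but not reported by name here.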

Additional observations from a re-analysis of the deposited data

Results flagged for a closer look

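In 3 of the 63 genes the zone ratio (log2 of zone 3 over zone 1 part) had its interval on opposite sides of 0 in the 2 libraries, as in 56 of 11867 genes, or 0.472%. Col3a1 had -0.42 in AEG-1ΔMAC against 0.32 in AEG-1fl/fl, and Sparc -0.20 against 0.24, so both leaned to zone 1 in the AEG-1ΔMAC section and to zone 3 in the AEG-1fl/fl section. Fn1 went the other way, at 0.07 and -0.04, a small difference in a gene with many counts. With 1 section of each genotype these differences were not tested.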

How the results depend on the processing

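Of 89 counts recomputed under other settings, 63 stayed within 1.5 times the value given, and no ratio of a named gene that was called changed direction. The 16 lower genes became 25 without vessel, duct, fibroblast and mesothelium spots (all 16 among them) and 5 at 2-fold. The 5 higher genes became 3 with spots thinned to 10000 UMIs, 2 without those spots, 8 at a minimum of 20 UMIs, 1 at 200 UMIs and 3 at 2-fold. Lower collagens became 11, from 5, without those spots, and lower laminins 1, from 4, without centring. The 3 genes higher in the zone 1 part became 1 with the outer 10% of spots, 0 without the vessel and related spots and 1 at 2-fold, and the 0 higher in the zone 3 part became 1 with the outer 10%, 4 without those spots and 2 after thinning. Without those spots the lower and higher genes within the zone 1 part were 16 and 2, from 9 and 6, and the higher genes within the middle part 4, from 2. With landmark genes as the index 13 genes were lower and 2 higher within the zone 1 part, against 5.49% and 3.38% of all genes. Within the zone 3 part these counts were 25 and 1, against 7.39% and 3.41%. In that landmark index Glul was not used. After thinning to 10000 UMIs, the lower genes within the zone 1, middle and zone 3 parts were 7, 13 and 19. The background shares were 4.53%, 5.62% and 6.58%. Without the vessel and related spots they were 16, 21 and 28, against 5.39%, 6.41% and 7.13%. Leaving the mesothelium score out of the mask, a setting chosen after seeing the data, gave 25 lower and 2 higher genes, 11 lower collagens, 0 genes higher in the zone 1 and 5 in the zone 3 part, and 15 lower and 2 higher within the zone 1 part. Of 264 ratios of named genes under 8 settings, 230 stayed within their counting interval and 34 did not. No paired analysis was possible because each genotype has 1 library and the labels carry no replicate numbers. Depth limits the 45 genes under 50 UMIs, including Timp1 and Lox, and the 9 and 25 vessel wall-rich spots of the zone 3 part.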
